A study of Mus musculus with 4 samples.

Results

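The interferon-stimulated genes are a family of antiviral and antigen-presenting genes, represented here by 40 named genes. Members were taken as the rows of the deposited normalized expression table whose gene name was exactly one of the 40, and 39 were found in this way among 22458 symbols. All 39 had a mean of at least 1 FPKM (read counts scaled by the length of the transcript and the size of the library) over the libraries and entered the test, together with the rest of the 10883 genes that passed that filter. The remaining member, Eif2ak2, appeared only in a row joined with another locus and is described separately.

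The study sequenced RNA from the jejunal epithelium of adult mice on a 129xC57/Bl6xSvJ mixed background. Cre- controls gave 2 libraries (control 1 and control 2), and mice labelled Hnf4a-/-;Cdx2-/- gave the other 2 (labelled dKO 1 and labelled dKO 2), described as independent biological replicates. Every animal, controls included, received 1 mg of tamoxifen on each of 5 days, given to recombine the conditional alleles where Cre was present. The promoter that drives Cre is not given in the sources used here. The epithelium was released from the wall with 5 mM EDTA over 45 min at 4 °C, so the RNA came from a bulk preparation, in which fewer cells of a type and less RNA per cell cannot be told apart.

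The targeted genes were read first. Hnf4a, a nuclear receptor of the intestinal epithelium, measured 156 and 202 FPKM in the controls against 31.6 and 48.2 in the labelled dKO libraries, and it fell by 2.16 ± 0.27 on the log2 scale (SE, limma, adjusted p = 0.0147). Cdx2, a homeobox factor of the same tissue, measured 70.9 and 65.2 FPKM in the controls against 159.8 and 161 in the labelled dKO libraries, and it rose by 1.23 ± 0.15 (SE, limma, adjusted p = 0.0150). That rise is not what a loss of transcript would give. The FPKM of a gene does not show whether a part of it was deleted, and the deletion was not tested. These libraries are therefore called by their label throughout, and a genotype difference below is a difference between labelled groups. Most epithelial markers were high in every library (Krt8 1998 to 3496 FPKM), though Tjp1 lay at 17.2 to 25.7 FPKM. Endothelial markers were near 0 (summed 0.628 to 0.874 FPKM). Of 9 epithelial markers, Epcam measured 1135 and 1281 FPKM in the controls against 526 and 531 in the labelled dKO libraries. It fell by 1.19 ± 0.20 (SE, limma, adjusted p = 0.0300). Vil1 fell by 1.00 ± 0.19 (SE, limma, adjusted p = 0.0411) and Krt19 rose by 1.80 ± 0.22 (SE, limma, adjusted p = 0.0150). The files hold no read counts, so depth is unknown, and the FPKM of a library summed to between 651603 and 704038.

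Interferons are secreted signals of infection. Type I and type III interferons act through cell surface receptors and the kinases JAK1 and TYK2, which activate STAT2 among other factors. STAT2 and IRF9 are subunits of the complex ISGF3, which binds the interferon-stimulated response element (ISRE) before the target genes. Interferon gamma acts through a separate receptor and the gamma-activated site (GAS). The targets sense foreign nucleic acid, degrade or trap viral RNA, modify proteins with ISG15, coat the membranes of intracellular pathogens or cut peptides for MHC class I. In the intestine, epithelial cells are known to respond strongly to type III interferon.

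Each library was compared with the other 3 before the genotypes were. Labelled dKO 2 held the highest value of all 4 libraries for 39 of 39 members, against 25.1% of all genes tested. Because the filter on low values counts that library, 5 members (Ifit2, Oas2, Mx2, Ifi44 and Gbp3) passed it only by being high there and had to differ, standing at no more than 1.46 FPKM elsewhere. Counts and medians are therefore also given for genes that average at least 1 FPKM in the other 3 libraries, a rule set after seeing the data. Of 34 such members, 34 were highest in labelled dKO 2, against 24.5% of 10761 genes. Its FPKM exceeded the mean of the other 3 libraries by 1.60-fold to 136-fold, with a median of 9.91-fold. The summed FPKM of the 39 members was 617.0 in control 1, 617.8 in control 2, 644.7 in labelled dKO 1 and 4205 in labelled dKO 2. The members as a family were therefore at a like summed level in 3 libraries and high in a single one.

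On the log2(FPKM + 1) scale, 36 of 39 members lay at least 1 unit above the mean of the other 3 libraries in labelled dKO 2, against 3.82% of all genes, and 0 lay at least 1 unit below it, against 4.98%. The exceptions were Irf9 (0.69), Trim25 (0.85) and Ifi35 (0.68), which were also the members with the lowest folds. The members' median difference in this library was 3.29, while that of all genes was 0.01. Among the 34 members that passed the filter without that library, 31 lay at least 1 unit above, against 3.46% of genes, with a median difference of 3.03 and folds of 1.60 to 32.0 with a median of 9.28.

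In each of the other libraries, 0 of 39 members lay at least 1 unit above the mean of the other 3, against 3.78% of all genes for control 1, 5.30% for control 2 and 3.52% for labelled dKO 1. Members lay at least 1 unit below that mean in 19 cases for control 1 (4.03% of all genes), 23 for control 2 (3.75%) and 17 for labelled dKO 1 (3.96%). The mean of the other 3 includes labelled dKO 2 in each of these counts. The lowest value of the 4 libraries belonged to labelled dKO 1 for 16 members (19.1% of all genes), control 2 for 13 (29.5%), control 1 for 10 (24.1%) and labelled dKO 2 for 0 (27.2%). Between the controls the members' median difference was -0.08 (control 2 minus control 1, largest absolute value 1.05), and between the labelled dKO libraries it was 2.63 (replicate 2 minus replicate 1). The same medians over all genes were -0.01 and -0.02.

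**Figure D1:**
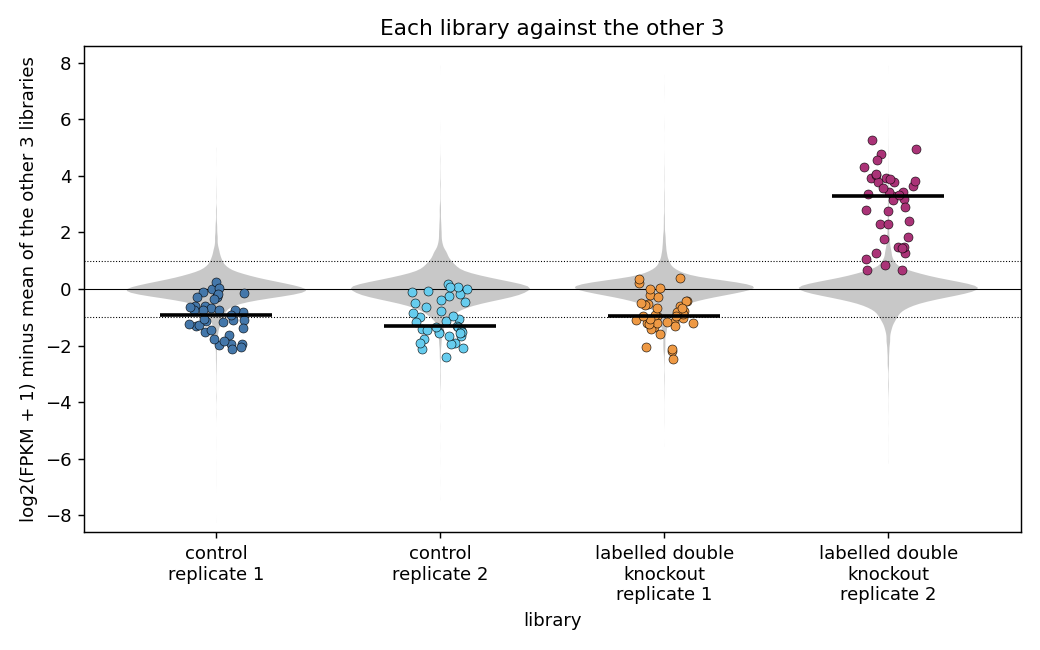
Difference of each library from the mean of the other 3 on the log2(FPKM + 1) scale (y axis) for the 4 libraries (x axis): points are the 39 members, black bars their medians, grey shapes all 10883 genes tested, and dotted lines 1 unit either way. All 39 points of labelled double knockout replicate 2, of which 5 passed the filter only through it, lie above 0 with a median of 3.29, while the medians of the other libraries lie at -0.93, -1.32 and -0.94.

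Of the 372 genes that lay at least 1 unit above in labelled dKO 2 and passed the filter without it, 31 were members, which is 8.33% of those genes and 91.2% of the 34 members. A further 36 were on the pathway lists described below, those of ligands and receptors aside. Of the 50 such genes with the greatest difference, 17 were members and 7 more were on those lists.

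The folds are given by level elsewhere. The 9 members with a mean of at least 20 FPKM in the other 3 libraries had a median of 2.82-fold (range 1.60 to 27.4). The 16 members between 5 and 20 FPKM had a median of 7.47-fold (1.63 to 22.5), and the 9 below 5 FPKM that passed the filter without labelled dKO 2 had a median of 17.4-fold (8.23 to 32.0). The level elsewhere is also the denominator of the fold. The 5 members that passed only through that library, at 29.0-fold to 136-fold, are left out of these classes. Within the most abundant class Isg15 had the highest fold, with a mean of 27.9 FPKM elsewhere and 27.4-fold in labelled dKO 2.

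Promoter sequence of the members was described next. RefSeq promoter windows on GRCm38.p6 matched 31 of the 40 members by symbol. Dhx58, Zbp1, Usp18, Oas2, Mx1, Mx2, Rtp4, Parp9 and Parp14 were not matched. The ISRE core, taken as GAAA followed after any 2 bases by a second GAAA and searched on both strands in the 250 bases before the gene start, was found in 13 of the 31 (41.9%), against 3.46% of 27025 genes. These were Stat2, Isg15, Ifit1, Ifit3, Oas1a, Oas3, Rsad2, Bst2, Igtp, Irgm1, Gbp2, Gbp3 and Cxcl10. The GAS core TTCNNNGAA, which reads the same on both strands, was found in 6 of the 31 (19.4%), namely Ifit2, Oas1a, Bst2, Eif2ak2, Igtp and Psmb8, against 8.13% of genes. The members were chosen as interferon-stimulated genes, so these shares describe the choice of list and say nothing about the libraries. A match describes letters in a window and is not evidence of binding.

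The windows of 8 members are shown because they hold the core in its different arrangements and belong to genes described below. Each is given 5′ to 3′ on the strand of its gene with bases of the core in capitals; TTTC, any 2 bases and TTTC is the same core on the opposite strand. The first 2 join cores into 1 run, Isg15 (chr4:156200855-156200916, minus strand) with 3 overlapping cores at 78 to 57 bases before the start and Bst2 (chr8:71537567-71537622, minus strand) with 2.
Isg15: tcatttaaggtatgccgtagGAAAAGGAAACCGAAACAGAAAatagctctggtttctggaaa
Bst2: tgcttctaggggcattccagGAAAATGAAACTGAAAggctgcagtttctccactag
Oas1a (chr5:120907526-120907565, minus strand) and Irgm1 (chr11:48871421-48871470, minus strand) also join 2 cores, both within 30 bases of the start.
Oas1a: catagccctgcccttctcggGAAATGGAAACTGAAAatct
Irgm1: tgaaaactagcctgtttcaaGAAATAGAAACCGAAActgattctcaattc
Ifit1 (chr19:34640765-34640833, plus strand), with 2 separate cores, Ifit3 (chr19:34583387-34583436, plus strand), which has another outside the stretch shown, and Gbp2 (chr3:142620584-142620633, plus strand) carry the core on the opposite strand.
Ifit1: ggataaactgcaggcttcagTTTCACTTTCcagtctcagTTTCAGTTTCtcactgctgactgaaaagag
Ifit3: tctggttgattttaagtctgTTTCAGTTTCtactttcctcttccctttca
Gbp2: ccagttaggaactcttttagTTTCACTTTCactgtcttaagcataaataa
Cxcl10 (chr5:92349073-92349122, minus strand) has a single core farther out, 213 to 204 bases before the start.
Cxcl10: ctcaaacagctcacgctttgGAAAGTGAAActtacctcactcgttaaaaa

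Among members that passed the filter without labelled dKO 2, the 12 with an ISRE core had a median difference in that library of 3.86 (range 1.83 for Stat2 to 4.78 for Isg15). The 15 with a window but no such core had a median of 1.76 (range 0.68 to 3.42, the highest being Oasl2). The 2 sets also differ in level elsewhere. Of the members with the core, only Isg15 had a mean of at least 20 FPKM in the other 3 libraries. Irf7, Trim25, Oasl1, Oasl2, Ifi35, Psmb8 and Psmb9 were at that level and lacked the core. Members at that level had a lower median fold, so core and level cannot be told apart here. The difference was not tested.

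**Figure D2:**
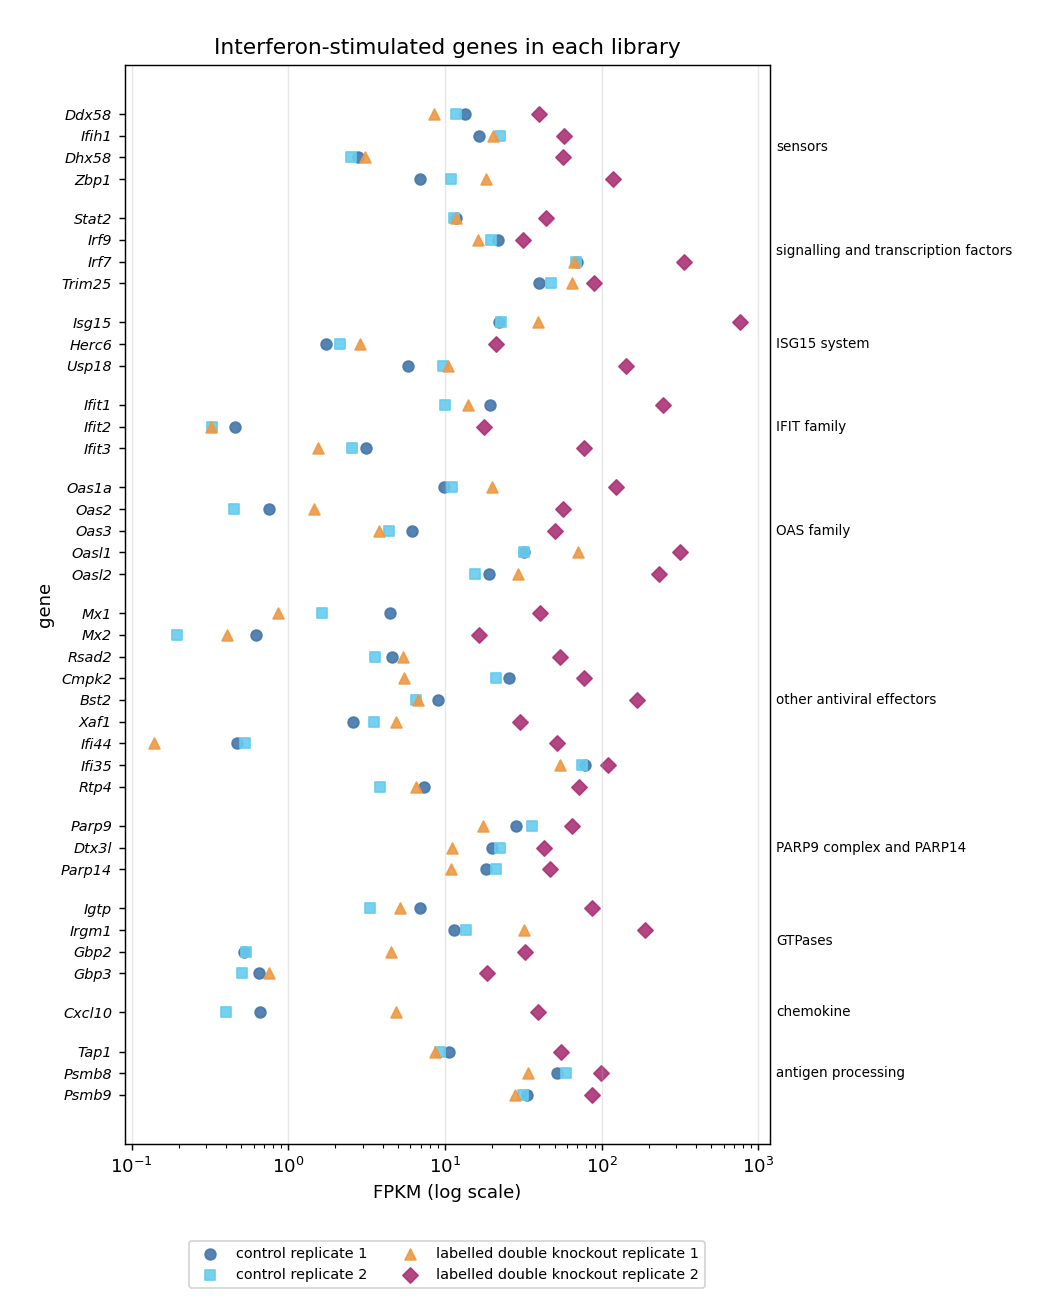
FPKM on a log scale (x axis) of the 39 members (y axis, grouped by role) in the 4 libraries, with 1 point per library. The diamond of labelled double knockout replicate 2 is the rightmost point in every line, from 16.4 FPKM for Mx2 to 767 FPKM for Isg15. Of these members, 5 passed the filter only through that library.

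The values follow by role, in FPKM and in the order control 1, control 2, labelled dKO 1, labelled dKO 2. Folds for labelled dKO 2 are against the mean of the other 3 libraries. The sensors recognise viral nucleic acid in the cytoplasm. Ddx58, which encodes the RNA helicase RIG-I (mm9 chr4:40150809-40186858), measured 13.4, 11.7, 8.48 and 39.6 FPKM. Ifih1, which encodes the RNA helicase MDA5 (mm9 chr2:62433849-62484312), measured 16.4, 22.3, 20.2 and 57.1 FPKM. Both were high only in labelled dKO 2, at 3.54-fold and 2.91-fold. Dhx58, whose product LGP2 modulates the other helicases (mm9 chr11:100556197-100565585), measured 2.78, 2.50, 3.07 and 56.6 FPKM, a 20.3-fold excess in labelled dKO 2. Zbp1, a sensor of Z-form nucleic acid that can trigger necroptosis (mm9 chr2:173032113-173044423), measured 6.89, 10.9, 18.2 and 118 FPKM. Zbp1 was the most abundant sensor on average, and both labelled dKO libraries lay above both controls. Its log2 fold change between the labelled groups was 2.31 ± 0.87 (SE, limma, adjusted p = 0.165), which did not pass the threshold of 0.05.

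The signalling members carry the interferon signal or amplify it. Stat2, a subunit of ISGF3 (mm9 chr10:127707631-127729905), measured 11.8, 11.5, 11.7 and 44.1 FPKM. Irf9, its DNA-binding partner (mm9 chr14:56222821-56228867), measured 21.7, 19.8, 16.2 and 31.3 FPKM. The subunits differed in size, 3.77-fold for Stat2 and 1.63-fold for Irf9. Irf7, a factor that drives further interferon transcription (mm9 chr7:148449081-148452323), measured 69.1, 68.1, 67.0 and 336 FPKM. Its values in the other 3 libraries lay within a narrow band, with labelled dKO 2 at 4.94-fold their mean, so the groups overlapped and the log2 fold change of 1.12 ± 0.75 did not pass (SE, limma, adjusted p = 0.383). Trim25, a ubiquitin ligase that acts on RIG-I (mm9 chr11:88860716-88881607), measured 39.9, 47.2, 64.2 and 89.9 FPKM. It was one of the members in which labelled dKO 1 also stood above both controls, at 1.47-fold their mean, and its log2 fold change was 0.79 ± 0.22 by limma (SE, adjusted p = 0.0942).

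ISG15 is a ubiquitin-like protein that is attached to other proteins, and HERC6 attaches it and USP18 removes it. Isg15 (mm9 chr4:155573532-155574927) measured 22.0, 22.7, 39.1 and 767 FPKM, the highest level of any member. Its group means were 22.4 ± 0.503 FPKM in controls and 403 ± 515 in labelled dKO (SD, n = 2 each), an SD larger than the mean it belongs to. The log2 fold change of 2.91 ± 1.36 did not pass (SE, limma, adjusted p = 0.238). Herc6, the mouse ligase, measured 1.75, 2.13, 2.88 and 21.2 FPKM. Usp18, the ISG15 protease that also dampens the type I interferon receptor, measured 5.77, 9.70, 10.4 and 143 FPKM. All 3 genes of this system were lowest in control 1, somewhat higher in labelled dKO 1 than in either control, and 9.42-fold to 27.4-fold higher in labelled dKO 2.

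The IFIT proteins bind viral RNA that lacks the host cap marks. Ifit1 (mm9 chr19:34715378-34724499) measured 19.4, 10.1, 14.0 and 248 FPKM. Ifit2 (mm9 chr19:34625183-34651024) measured 0.458, 0.325, 0.322 and 17.7 FPKM. Ifit3 (mm9 chr19:34658018-34663472) measured 3.15, 2.56, 1.55 and 77.4 FPKM. In all 3, labelled dKO 1 lay between the controls or below them, and labelled dKO 2 was 17.1-fold, 48.1-fold and 32.0-fold above the mean of the other 3. Ifit1, the most abundant of them, had a log2 fold change of 2.02 ± 1.32 by limma (SE, adjusted p = 0.375). These genes lie side by side and have close copies, so reads shared between copies make the single values uncertain.

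The OAS enzymes make 2-5A, the messenger that activates RNase L, and the OAS-like protein of Oasl1 lacks that activity. Oas1a (mm9 chr5:121346265-121357534) measured 9.89, 11.0, 19.8 and 124 FPKM. Oas2 (mm9 chr5:121180341-121199857) measured 0.750, 0.450, 1.46 and 56.6 FPKM. Oas3 (mm9 chr5:121203106-121227668) measured 6.20, 4.41, 3.78 and 50.4 FPKM. These neighbours on chromosome 5 differed in labelled dKO 1, which lay above both controls for Oas1a and Oas2 and below both for Oas3. Oasl1, whose product inhibits translation of Irf7 (mm9 chr5:115373248-115387920), measured 32.0, 31.8, 71.1 and 317 FPKM. Oasl2 measured 19.1, 15.6, 29.4 and 231 FPKM. Oasl1 was the most abundant of the family and had both labelled dKO libraries above the controls, at 2.23-fold in replicate 1, and a log2 fold change of 2.20 ± 0.69 by limma (SE, adjusted p = 0.117). Oas1a also belongs to a group of near-identical genes, so its reads may be split with its copies.

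Other antiviral effectors act at separate steps of infection. Mx1, a dynamin-like GTPase of the nucleus (mm9 chr16:97668641-97684513), measured 4.46, 1.64, 0.859 and 40.5 FPKM. Its relative Mx2 measured 0.621, 0.194, 0.407 and 16.4 FPKM. Of all members Mx1 differed most between the controls on the log2(FPKM + 1) scale, and labelled dKO 2 was 17.4-fold higher for Mx1 and 40.3-fold higher for Mx2. Rsad2, which encodes viperin (mm9 chr12:27127607-27141317), measured 4.60, 3.60, 5.40 and 54.3 FPKM. Its neighbour Cmpk2, a mitochondrial nucleotide kinase (mm9 chr12:27154079-27164702), measured 25.5, 21.1, 5.50 and 76.8 FPKM. The neighbours parted in labelled dKO 1, which was 1.32-fold above the control mean for Rsad2 and 4.24-fold below it for Cmpk2.

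Bst2, or tetherin, which holds budding virus at the cell surface, measured 9.05, 6.54, 6.74 and 168 FPKM, a 22.5-fold excess in labelled dKO 2. Ifi44 measured 0.472, 0.530, 0.139 and 51.8 FPKM. It had the highest fold of all members, at 136, on a level below 1 FPKM elsewhere. Xaf1, a pro-apoptotic protein, measured 2.60, 3.51, 4.87 and 30.1 FPKM. Rtp4, a chaperone of receptor transport, measured 7.32, 3.82, 6.55 and 71.7 FPKM. Both were highest in labelled dKO 2, at 8.23-fold and 12.1-fold. Labelled dKO 1 lay between the controls for Rtp4 but above both for Xaf1, at 1.60-fold their mean. Ifi35 measured 77.7, 74.5, 54.0 and 109.8 FPKM, the lowest fold of all members at 1.60, with labelled dKO 1 below both controls. It was the most abundant of these effectors on average, with a log2 fold change of 0.02 ± 0.35 by limma (SE, adjusted p = 0.982).

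Eif2ak2 encodes PKR, the kinase that halts translation on sensing double-stranded RNA. The row that joins it with Gm6548 measured 16.9, 54.0, 45.4 and 58.3 FPKM and was not counted among the members. In the authors' deposited files of single libraries, where Eif2ak2 has a row of its own, it measured 8.02, 9.13, 11.3 and 39.9 FPKM. The highest value again belonged to labelled dKO 2 in both sources, and control 2 was close to it only in the joined row.

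PARP9 and DTX3L form a complex that adds ubiquitin to chromatin and viral proteins, and PARP14 is a related ADP-ribosyltransferase. Parp9 (mm9 chr16:35926600-35972707) measured 28.2, 35.9, 17.6 and 64.4 FPKM. Dtx3l measured 19.985, 22.6, 11.2 and 42.6 FPKM. Parp14 (mm9 chr16:35832963-35871468) measured 18.2, 21.2, 10.9 and 46.9 FPKM. All 3 had the same order, lowest in labelled dKO 1 at 1.81-fold to 1.91-fold below the control mean and highest in labelled dKO 2 at 2.36-fold to 2.80-fold above the other 3. The labelled group means of Parp9, the most abundant, were 32.0 ± 5.38 and 41.0 ± 33.1 FPKM (SD, n = 2 each), and its log2 fold change was 0.09 ± 0.60 by limma (SE, adjusted p = 0.944). Parp9 and Dtx3l are listed at a single locus and strand use is not stated, so their reads cannot be fully told apart.

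The interferon-inducible GTPases attack the membranes around intracellular pathogens. Igtp measured 6.91, 3.31, 5.14 and 87.4 FPKM. Irgm1, a regulator of that family, measured 11.5, 13.6, 31.8 and 188 FPKM. Labelled dKO 1 lay between the controls for Igtp but 2.53-fold above their mean for Irgm1, whose log2 fold change was 2.54 ± 0.82 by limma (SE, adjusted p = 0.122). Gbp2, a guanylate-binding protein, measured 0.523, 0.541, 4.52 and 32.5 FPKM. Gbp3 measured 0.655, 0.508, 0.754 and 18.5 FPKM. Gbp2 was thus higher in both labelled dKO libraries than in either control, at 8.49-fold in replicate 1, whereas Gbp3 in replicate 1 was close to the controls.

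Cxcl10, a chemokine that attracts activated T cells, measured 0.659, 0.401, 4.89 and 39.4 FPKM. Its pattern was like that of Gbp2, with labelled dKO 1 at 9.23-fold the control mean and labelled dKO 2 highest. Group means were 0.530 ± 0.183 FPKM in controls and 22.1 ± 24.4 in labelled dKO (SD, n = 2 each), and the log2 fold change of 3.34 ± 0.90 was the highest of the members (SE, limma, adjusted p = 0.0861).

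The antigen processing members supply peptides to MHC class I and lie next to each other on chromosome 17. Tap1, a subunit of the peptide transporter (mm9 chr17:34324500-34334170), measured 10.6, 9.36, 8.69 and 55.3 FPKM. Psmb8, an immunoproteasome subunit (mm9 chr17:34335139-34338399), measured 51.7, 58.8, 34.0 and 99.0 FPKM. Psmb9, another such subunit (mm9 chr17:34319043-34324275), measured 33.2, 31.3, 27.8 and 86.7 FPKM. Labelled dKO 1 was the lowest library for all 3, and labelled dKO 2 was 5.79-fold, 2.06-fold and 2.82-fold above the mean of the other 3. Psmb8, the most abundant, had a log2 fold change of 0.08 ± 0.50 by limma (SE, adjusted p = 0.941).

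Labelled dKO 1 was then set against the controls alone. It lay above both controls for 16 of 39 members (40.4% of all genes), below both for 16 (36.9%) and between them for 7. The members' median difference from the control mean was 0.02 on the log2(FPKM + 1) scale, against 0.03 for all genes. These shares are close to those of all genes. Gbp2, Cxcl10, Irgm1 and Oasl1 lay at least 1 unit above the control mean (4 members, against 5.46% of all genes), and Cmpk2 and Mx1 at least 1 unit below it (2 members, against 6.75%).

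Fitting the table without labelled dKO 2 left 34 members to test. The filter of 1 FPKM was then applied to the mean of the libraries kept. Gbp2 and Cxcl10 averaged 0.532 and 0.530 FPKM in the controls. They passed this filter only through labelled dKO 1, so they had to be higher there. In that fit 2 members rose, Gbp2 by 1.85 ± 0.25 (SE, limma, adjusted p = 0.0385) and Cxcl10 by 1.95 ± 0.27 (SE, limma, adjusted p = 0.0402), against 2.19% of all genes called higher. Cmpk2 alone fell, by 1.90 ± 0.24 (SE, limma, adjusted p = 0.0351), against 2.50% called lower. Oasl1 (1.13, adjusted p = 0.0630) and Irgm1 (1.28, adjusted p = 0.0688) did not pass, nor did Parp9 (-0.82, adjusted p = 0.182), Dtx3l (-0.87, adjusted p = 0.135) or Parp14 (-0.80, adjusted p = 0.172). The members' median in this fit was 0.04.

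Fitting it without labelled dKO 1 gave a different count. There 31 of 39 members rose and 0 fell, against 2.77% of all genes called higher, with a median of 3.45 and a lowest adjusted p of 0.00617 for Isg15 (limma). The 31 include the 5 members whose passing of the filter fixed this outcome. Of the 34 others, 26 rose, against 2.46% of genes, with a median of 3.16. Ifih1, Irf9, Trim25, Ifi35, Parp9, Dtx3l, Parp14 and Psmb8 did not pass. The 34 others still hold Gbp2 and Cxcl10, which averaged 0.532 and 0.530 FPKM in the controls. In the fit without labelled dKO 1 they passed the filter only through labelled dKO 2, so they too had to be higher. The rule that defines the 34, and the genes set beside them, counts labelled dKO 1, which this fit leaves out. In both fits 1 library stands for its group and is assumed to vary as the other group does.

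**Figure D3:**
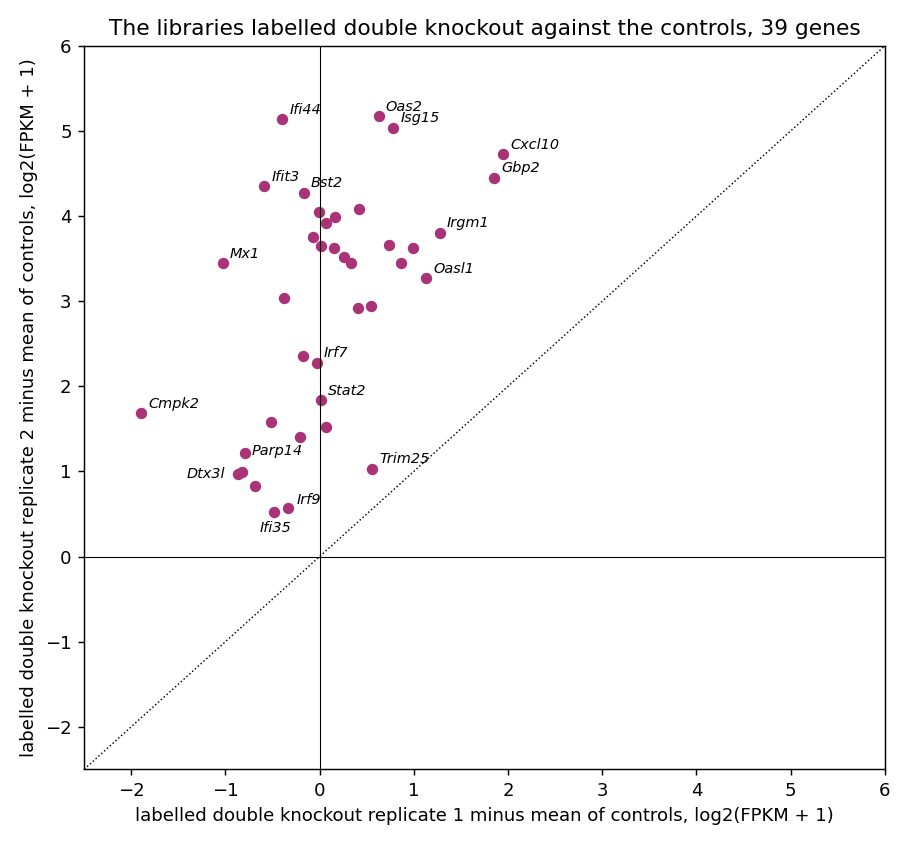
Difference from the mean of the controls on the log2(FPKM + 1) scale for labelled double knockout replicate 1 (x axis) and replicate 2 (y axis), with 1 point per member and a dotted line of equal differences. All 39 points, of which 5 passed the filter only through replicate 2, lie above the dotted line. Along the x axis the points lie on both sides of 0, from Cmpk2 at -1.90 to Cxcl10 at 1.95.

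The comparison of the labelled genotypes used all 4 libraries. Limma called 0 of 39 members at an adjusted p under 0.05, where 9.57% of all genes were called (3.77% higher and 5.80% lower in labelled dKO). At an unadjusted p under 0.05 there were 7 members, all with a higher mean in labelled dKO (Trim25, Gbp2, Cxcl10, Oasl1, Irgm1, Zbp1 and Oas1a), against 28.3% of all genes in either direction and 13.3% higher. The fold change was above 0 for 38 of 39 members, with Cmpk2 at -0.11, and its median was 1.84, against 0.02 for all genes. Among the 34 members that passed the filter without labelled dKO 2 it was above 0 for 33, with a median of 1.70, against 0.02 for all such genes. That filter still counts labelled dKO 1. Gbp2 and Cxcl10, with the highest fold changes (3.15 and 3.34), averaged 0.532 and 0.530 FPKM in the controls and remained only through it. Adjusted p-values ranged from 0.0850 (Gbp2) to 0.982 (Ifi35). The groups did not overlap for 16 members, with both labelled dKO libraries above both controls (31.2% of all genes), and for 0 members in the other direction (29.5%). These p-values measure the spread between 2 libraries per group, and no permutation of 2 against 2 can give an exact two-sided p under 0.33.

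The authors' deposited table of the same comparison gave another count. It called 28 of 40 members, all higher in the knockout, against 13.2% of the 11594 rows tested there and 5.90% higher. Of these 28, 25 stood at the lowest q-value of any member in the authors' deposited table, 0.000868. The highest q among the 28 was 0.0283 for Ifih1. Isg15, for example, stands there at 22.2 FPKM in control and 402 in knockout. In 14 of the 28 the libraries of the groups overlapped, so that labelled dKO 1 lay below at least 1 control. The 12 members without a call in the authors' deposited table were Trim25, Ifi35, Cmpk2, Irf9, Parp9, Parp14, Dtx3l, Psmb8, Psmb9, Eif2ak2, Ddx58 and Cxcl10. Both tests start from the same 4 libraries and so are not independent.

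**Figure D4:**
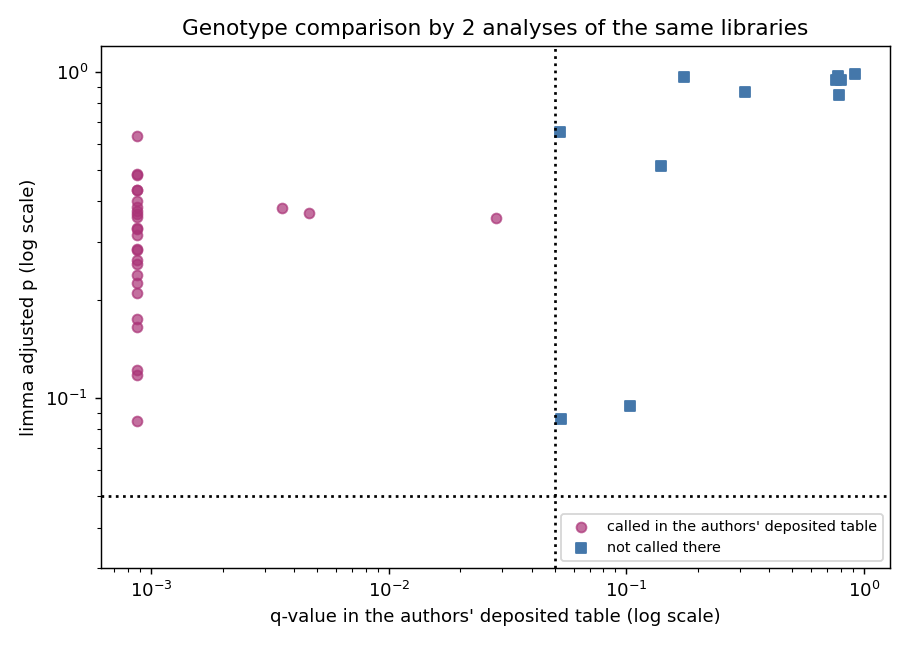
The q-value of each of 39 members in the authors' deposited table (x axis, log scale) against its limma adjusted p (y axis, log scale), with dotted lines at 0.05. All 39 points lie above the limma threshold, while the 28 called by the authors lie left of theirs, most of them in a column at q = 0.000868.

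The rest of the pathway was read from lists of genes. Of the 13 interferon ligands named, 11 had a row, and 10 of these were listed at 0 FPKM in every library, Ifnb1, Ifnl2 and Ifnl3 among them. A value of 0 in these files can be a failed estimate. Ifng was listed at 0 in both controls, at 0.151 FPKM in labelled dKO 1 and at 0.197 in labelled dKO 2.

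Of 6 interferon receptor genes tested, 2 fell (5.80% of all genes) and 0 rose (3.77%). Ifngr2, the second chain of the interferon gamma receptor, measured 180, 233, 61.3 and 71.9 FPKM and fell by 1.61 ± 0.20 (SE, limma, adjusted p = 0.0150). Il10rb, which pairs with the type III interferon receptor, measured 91.8, 108, 55.4 and 46.0 FPKM and fell by 0.96 ± 0.18 (SE, limma, adjusted p = 0.0411). Both labelled dKO libraries lay below both controls for each receptor. The list's median log2 fold change was -0.44, and its median difference in labelled dKO 2 was -0.43.

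Of 13 JAK, STAT, IRF and SOCS genes tested, 0 were called, and the median log2 fold change was 0.07. Irf1, the most abundant, measured 78.3, 89.3, 83.8 and 72.4 FPKM (limma, adjusted p = 0.740). Labelled dKO 2 stood at least 1 unit above the other 3 for 2 of them, against 3.82% of all genes. Socs1, an inhibitor of JAK kinases, was among these, at 1.74, 2.05, 2.01 and 6.22 FPKM, and was named after its values were seen.

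Among 11 genes of nucleic acid sensing tested, 1 rose (3.77% of all genes) and 1 fell (5.80%), with a median of -0.03. Aim2, a sensor of cytoplasmic DNA, measured 1.07, 1.14, 4.10 and 7.09 FPKM and rose by 1.61 ± 0.27 (SE, limma, adjusted p = 0.0309). Mavs, the adaptor of RIG-I and MDA5, measured 37.4, 41.1, 21.7 and 20.6 FPKM and fell by 0.86 ± 0.15 (SE, limma, adjusted p = 0.0333). For both genes the 2 labelled dKO libraries lay on the same side of the controls.

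Of 43 other targets of type I and III interferon tested, limma called 2 higher (3.77% of all genes) and 1 lower (5.80%). Their median log2 fold change was 0.80. Among these targets 5 passed the filter only through labelled dKO 2. Of the 38 others, 28 lay at least 1 unit above in labelled dKO 2 (3.46% of all such genes), with a median of 3.04-fold. In that library 32 were highest (24.5% of all such genes). Their median log2 fold change between the labelled groups was 0.75. Slfn2, a growth regulator of lymphocytes, measured 3.30, 3.54, 38.3 and 98.9 FPKM and rose by 3.83 ± 0.45 (SE, limma, adjusted p = 0.0130). Shisa5 measured 29.4, 24.4, 85.6 and 115.6 FPKM and rose by 1.85 ± 0.21 (SE, limma, adjusted p = 0.0128). Ifi27 measured 50.7, 61.5, 26.8 and 23.9 FPKM and fell by 1.11 ± 0.17 (SE, limma, adjusted p = 0.0250). In these 3 genes both labelled dKO libraries lay on the same side of the controls.

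Of 10 interferon gamma targets tested, 0 were called. Of these, 6 (Cd274, Cxcl9, Gbp6, Gbp7, Gbp8 and Nlrc5) passed the filter only through labelled dKO 2. Of the other 4, 3 lay at least 1 unit above there, against 3.46% of genes that passed without it. Ido1, an enzyme of tryptophan breakdown and the most abundant, was the remaining one, at 19.1, 32.1, 0.670 and 14.8 FPKM (limma, adjusted p = 0.231).

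Of 15 genes of MHC class I presentation tested, 2 fell (5.80% of all genes) and 0 rose (3.77%). H2-Q2 measured 485, 596, 169 and 133 FPKM and fell by 1.84 ± 0.22 (SE, limma, adjusted p = 0.0135). H2-Q1 measured 183, 187, 56.4 and 55.1 FPKM and fell by 1.72 ± 0.15 (SE, limma, adjusted p = 0.00745). They belong to a family of near-identical genes, so their reads may be split among copies. The list's median difference in labelled dKO 2 was 0.05.

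Of the 9 genes named here from these lists as having passed, H2-Q1, Slfn2 and Shisa5 also passed in both fits that left out a labelled dKO library, and 0 of the 9 passed in a fit that left out a control.

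**Figure D5:**
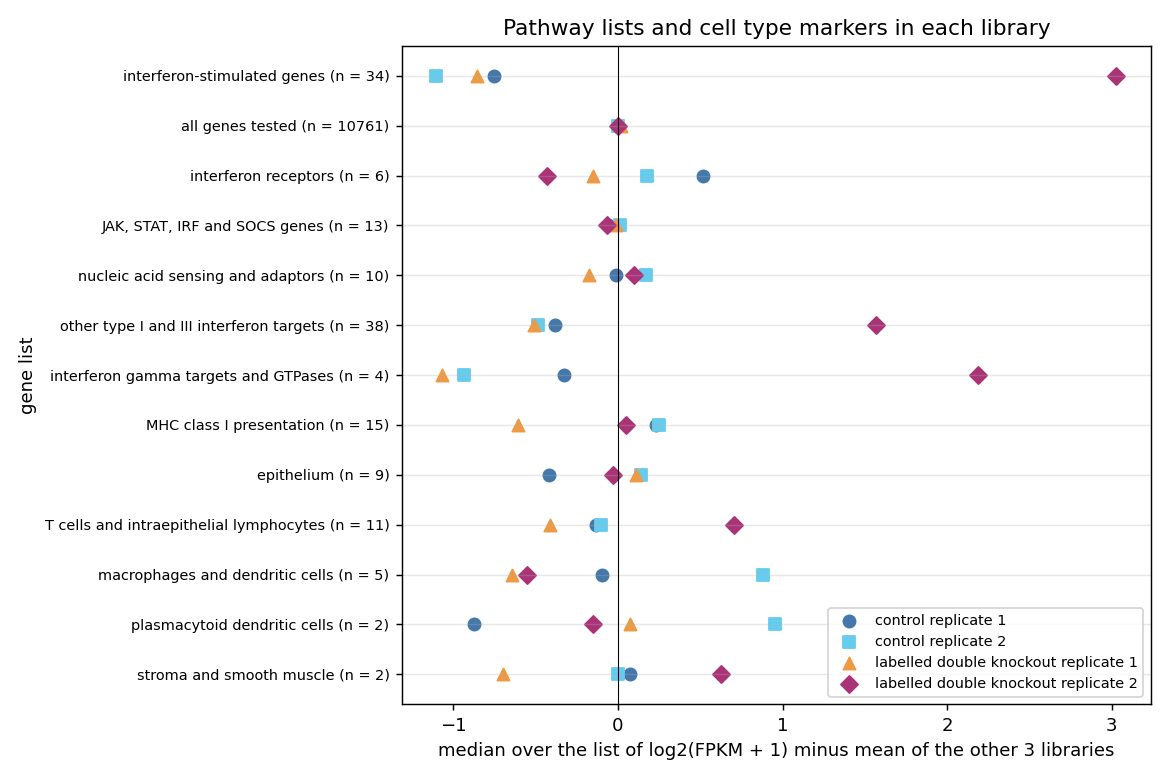
Median over each gene list (y axis, with its number of genes) of the difference of a library from the mean of the other 3, on the log2(FPKM + 1) scale (x axis), with 1 point per library, over genes that passed the filter without labelled double knockout replicate 2. That library stands at 3.03 for 34 members and 1.57 for 38 other targets of type I and III interferon, against 0.00 for all genes; the interferon gamma list holds only 4 such genes.

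Markers of other cells were read beside the members. The summed FPKM of 11 markers of T cells and intraepithelial lymphocytes was 114 in control 1, 125 in control 2, 88.4 in labelled dKO 1 and 246 in labelled dKO 2. In labelled dKO 2, 9 of the 11 were highest, against 25.1% of all genes. The other 2, Ptprc and Itgae, were highest in control 2. Labelled dKO 1 was the lowest library for 10 of the 11, against 19.1% of all genes. The median difference in labelled dKO 2 was 0.71. In that library 4 markers lay at least 1 unit above the other 3, against 3.82% of all genes. Those 4 were Gzma, Gzmb, Ccl5 and Nkg7, genes of cytotoxic cells, and Gzma for example measured 43.2, 51.1, 35.1 and 106.6 FPKM. The defining markers were less abundant, with Cd3e at 2.11, 3.44, 2.27 and 4.96 FPKM and Cd8a at 3.58, 3.28, 2.66 and 4.17 FPKM. Both were also highest in labelled dKO 2, at 1.91-fold and 1.31-fold the mean of the other 3. Limma called 0 of the 11 between the labelled groups. The part of these cells in the members' values was not tested.

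Markers of macrophages and dendritic cells summed to 23.8, 61.3, 19.7 and 20.3 FPKM, highest in control 2, where Lyz2 alone measured 34.8 FPKM. The markers differed in direction. Cd14 measured 3.34, 4.27, 10.5 and 7.86 FPKM and rose by 1.08 ± 0.21 (SE, limma, adjusted p = 0.0455). Itgam measured 2.23, 2.77, 0.706 and 0.549 FPKM and fell by 1.10 ± 0.21 (SE, limma, adjusted p = 0.041). Markers of plasmacytoid dendritic cells, a known source of type I interferon, summed to 97.7, 219, 119 and 109 FPKM. Most of that was Klk1, while the defining marker Siglech lay between 0.131 and 0.180 FPKM. Neither sum was highest in labelled dKO 2. B cell markers summed to at most 4.52 FPKM and stromal markers to at most 8.86 FPKM, in labelled dKO 2 for both.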

How the data were processed

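Per the submitters' processing notes, TopHat2 (2.0.9), Cufflinks (2.1.1), Cuffnorm, Cuffdiff and build mm9 were used, with no roles given. The authors deposited a normalized table of 23735 rows with no unit in its header, read here as FPKM because its values resemble the FPKM that the authors deposited per library. Group FPKM, p-values and q-values of the authors' deposited comparison were copied. Reads were single-end, 75 bases, with strand use not stated.

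Rows sharing a symbol were summed (160 symbols), and 1034 symbols of short RNAs were dropped. Every gene averaging 1 FPKM or more was tested with limma (3.58.1, R 4.3.3) on log2(FPKM + 1), with an intensity trend, two-sided, and Benjamini-Hochberg adjustment over 10883 genes; folds on this scale understate changes of low genes. The procedure was tested on simulated data. No test was made for 1 library against 3. Members and lists were chosen with earlier results of these data known. All members are given; statistics are given for called members and the most abundant of each role, and for Trim25 and in the fits without 1 library by choice after their values were seen; from other lists, called genes (at most 4) or the most abundant. Genes of cell marker lists are examples chosen after their values were seen. 1 gene of the pathway lists is not reported here.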

Additional observations from a re-analysis of the deposited data

How the results depend on the processing

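Over 12 settings that kept all 4 libraries (pseudocount, filter, scaling, source of FPKM, variance model, replicate block, handling of repeated symbols), 464 of 466 log2 fold changes of single members kept their direction and their lack of a call, and 0 members were called. The exception was Cmpk2, at 0.054 with a pseudocount of 5 and 0.075 with the FPKM of the per-library files, which moved the median of all genes to 0.17. With a pseudocount of 0.1, 1 member lay at least 1 unit above the other 3 in labelled dKO 1. With a pseudocount of 5, 12 lay at least 1 unit below in control 1 and 9 in labelled dKO 1. Testing every gene with a mean above 0 called 268 genes higher. With the replicate block limma called 310 genes higher and 476 lower and 0 members, with 12 members at an unadjusted p under 0.05. The deviations of same-numbered libraries correlated at -0.00481 over all genes tested. A single value over all genes cannot decide whether same-numbered libraries share a factor that acts on part of them.

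Leaving out 1 library at a time, genes called higher ranged from 65 to 301 and lower from 86 to 384, members called higher from 0 to 31 and lower from 0 to 1, and the members' median from 0.041 to 3.45. Without control 1 or control 2, 0 and 1 members had an unadjusted p under 0.05. In such fits 16 members changed direction, 15 of them without labelled dKO 2. Their log2 fold changes ranged from -0.51 to 1.59 for Ddx58, -0.34 to 0.57 for Irf9, -0.033 to 2.28 for Irf7, -0.0048 to 4.05 for Ifit1, -0.59 to 4.35 for Ifit3, -0.38 to 3.04 for Oas3, -1.03 to 3.45 for Mx1, -1.90 to 1.68 for Cmpk2, -0.17 to 4.28 for Bst2, -0.49 to 0.52 for Ifi35, -0.82 to 0.99 for Parp9, -0.87 to 0.97 for Dtx3l, -0.80 to 1.21 for Parp14, -0.18 to 2.36 for Tap1, -0.68 to 0.83 for Psmb8 and -0.21 to 1.40 for Psmb9. The cause was not tested. With 2 libraries per group and no read counts, low values have no counting error.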
